A study of Mus musculus with 9 samples.

Results

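A set of 40 imprinted genes that lie outside the Igf2, H19 and Igf2r growth axis was followed in mouse embryonic stem cells from which Zfp352, or Zfp352 together with Zfp353, had been deleted. The 40 genes were chosen by symbol from a fixed list of imprinted clusters, and all 40 had a row among the 24411 gene rows of the tables. They and the other gene lists below were chosen with earlier results of these data known. They fall into 19 clusters or single loci. The cells were EB5, a male mouse embryonic stem cell line derived from E14tg2a of 129Ola background that carries a blasticidin resistance cassette at 1 Oct3/4 allele (Oct3/4-IRES-BSD-pA/+), an allele that all 3 genotypes share, and they were grown without feeder cells on gelatin with serum and LIF. There were 3 libraries each of unedited Parental cells, of Zfp352-KO cells edited with CRISPR-Cas9, and of Zfp352/Zfp353-DKO cells edited at both genes. No label states whether replicate libraries stem from different cultures or how many edited clones they represent, so the p-values measure the spread between libraries, and that spread may be technical.

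Imprinted genes are transcribed mainly from 1 parental copy. The choice of copy is set by DNA methylation that is laid down in the egg or sperm at an imprinting control region and is kept after fertilisation, when most of the genome loses its methylation. KRAB zinc finger proteins such as ZFP57 and ZFP445 bind the methylated copy and recruit TRIM28, and DNMT1 with UHRF1 copies the methylation at each cell division. Many of these genes act on growth of the embryo and placenta, and imprints are known to vary between embryonic stem cell lines. The RNA measured here is the sum over both copies, so the values say how much RNA a gene gave and not from which copy it came.

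Each library held between 16599004 and 22044820 expected counts. An expected count is the estimate of reads per gene that the authors deposited, and TPM is their measure of a gene's share of all transcripts, corrected for transcript length. Zfp352 itself had 47, 52 and 41 counts in Parental cells, with 3, 8 and 10 left in the Zfp352-KO libraries and 1, 1 and 3 left in those of Zfp352/Zfp353-DKO, and Zfp353 was not analysed here. The summed level of 10 embryonic stem cell markers overlapped between genotypes, with 7445 to 7562 TPM in Parental, 7410 to 7515 in Zfp352-KO and 7450 to 7547 in Zfp352/Zfp353-DKO libraries, and none of the 10 was at 0. The sums of several other marker lists did move. The 18 fibroblast-type markers summed to 252 to 268 TPM in Parental, 193 to 201 in Zfp352-KO and 154 to 165 in Zfp352/Zfp353-DKO libraries. The 15 trophectoderm markers summed to 414 to 473, 308 to 312 and 276 to 287 TPM in the same order, and the 16 primitive endoderm markers to 234 to 244, 197 to 218 and 185 to 202 TPM. Sums of the 15 markers of the 2-cell-like state were 318 to 321, 378 to 410 and 317 to 350 TPM, and those of the 11 neural progenitor markers 244 to 246, 245 to 257 and 254 to 266 TPM.

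The levels of the imprinted genes spanned the range from silent to abundant. In Parental cells 9 members had a mean of at least 100 TPM, 14 lay between 10 and 100, 9 between 1 and 10, and 8 below 1. The most abundant was Commd1, a regulator of copper handling, at 250.2 ± 5.42 TPM (SD, n = 3), followed by the retrotransposon-derived gene Peg10 at 204 ± 12.3 TPM and by Snrpn, which encodes the spliceosomal protein SmN, at 178 ± 5.80 TPM. Mest and Meg3 came next, with spreads that overlap each other, and the Mest libraries lay below those of Snrpn. Kcnk9, a potassium channel gene, had no count in any library, which does not exclude expression below what these libraries detect. The summed TPM of all 40 genes was 1926 ± 45.7 in Parental cells, against 1953 ± 43.8 in Zfp352-KO cells and 1922 ± 48.0 in Zfp352/Zfp353-DKO cells (SD, n = 3 each), and these spreads overlap.

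**Figure D1:**
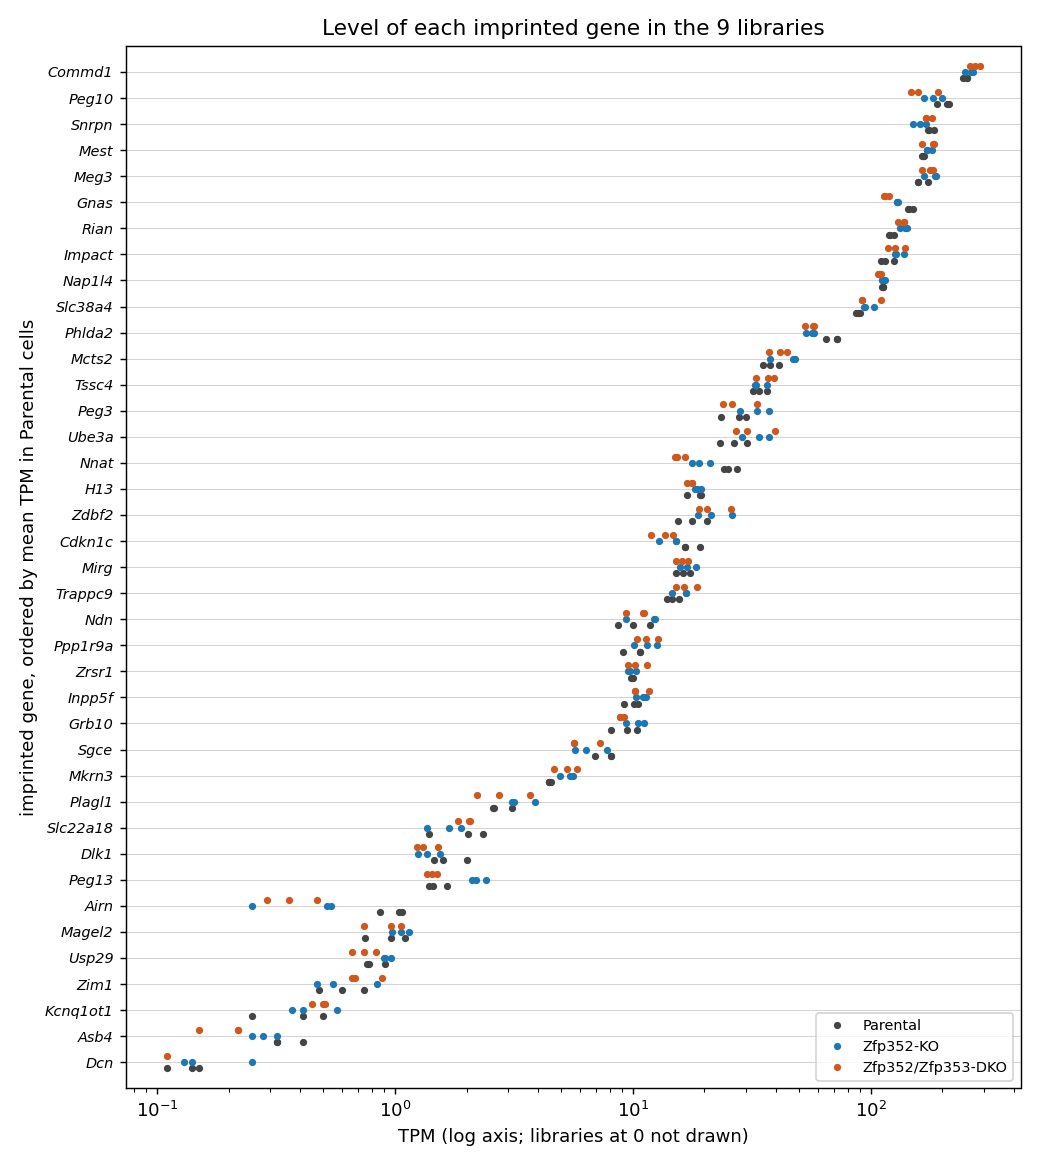
TPM of each imprinted gene in the 9 libraries on a log axis, 1 point per library coloured by genotype, ordered by the mean of the 3 Parental libraries. The genes run from 250.2 TPM for Commd1 to 0.13 TPM for Dcn, Kcnk9 at 0 is not drawn, and for most genes the points of the 3 genotypes overlap.

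Imprinted promoters are often rich in CpG, the dinucleotide that carries the methylation. The start-site windows of RefSeq on GRCm38.p6, the assembly also called mm10, run from 250 bases before to 50 bases after a transcript's start and were found for 31 of the 40 members. The 47 windows of these members held a median of 13 CpG, against 7 over all 32851 windows. The 250 bases before the start are shown for Nnat, Phlda2 and Gnas, the genes that were called lower in both edited genotypes, and for Mest, an imprinted gene of similar abundance to Gnas that was not called. Capitals mark CpG. The Nnat sequence is chr2:157559828-157560077 on the plus strand and the Phlda2 sequence chr7:143502525-143502774 on the minus strand. The Gnas sequence is chr2:174329756-174330005 on the plus strand, before 1 of the 4 starts that the table lists for this gene, and the Mest sequence is chr6:30737800-30738049 on the plus strand, before 1 of 3 starts.
Nnat: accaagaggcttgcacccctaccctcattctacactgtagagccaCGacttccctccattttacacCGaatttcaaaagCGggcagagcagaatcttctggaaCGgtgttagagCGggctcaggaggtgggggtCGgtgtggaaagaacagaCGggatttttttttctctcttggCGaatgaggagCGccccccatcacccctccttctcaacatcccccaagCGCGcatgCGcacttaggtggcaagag
Phlda2: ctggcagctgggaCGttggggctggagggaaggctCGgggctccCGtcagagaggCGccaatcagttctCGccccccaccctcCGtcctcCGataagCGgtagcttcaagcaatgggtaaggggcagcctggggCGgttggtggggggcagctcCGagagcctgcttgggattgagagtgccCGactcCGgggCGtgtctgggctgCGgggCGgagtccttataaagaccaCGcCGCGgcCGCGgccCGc
Gnas: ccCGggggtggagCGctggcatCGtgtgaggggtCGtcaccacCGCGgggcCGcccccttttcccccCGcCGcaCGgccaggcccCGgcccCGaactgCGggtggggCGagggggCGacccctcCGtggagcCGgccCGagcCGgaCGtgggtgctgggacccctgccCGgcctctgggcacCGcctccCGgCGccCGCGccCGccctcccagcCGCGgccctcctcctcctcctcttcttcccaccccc
Mest: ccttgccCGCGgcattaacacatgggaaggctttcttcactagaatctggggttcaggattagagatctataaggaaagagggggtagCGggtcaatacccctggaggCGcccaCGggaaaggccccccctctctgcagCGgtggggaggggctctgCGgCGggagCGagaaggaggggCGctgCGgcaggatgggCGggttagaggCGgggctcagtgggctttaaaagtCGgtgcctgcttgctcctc

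These stretches held 12 CpG in Nnat, 21 in Phlda2, 29 in Gnas and 14 in Mest, with a GC content of 54.8%, 68.8%, 80% and 62.4%. The hexamer TGCCGC, the motif of ZFP57, was searched on both strands of the 300-base windows. It was present in a window of 10 of the 31 members (32.3%), against 13.1% of all 27025 genes in the table. Counted by window, it was present in 11 of 47 (23.4%), against 11.6% of all 32851. The hexamer itself holds a CpG, and the part of CpG content in this difference was not tested. The 10 members were Meg3, Zim1, Snrpn, Mest, Grb10, Commd1, Mcts2, Nnat, Zdbf2 and Plagl1. Among the 4 members called in any comparison that had a window, 2 held it, Nnat and Snrpn, and in Nnat it lay after the start and so outside the letters shown. A match of letters is a description of the window, and the files hold no binding or methylation data.

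Of the 40 members, 37 passed the filter on low counts and were tested. In Zfp352-KO against Parental cells, the quasi-likelihood test of edgeR, with p-values adjusted by the Benjamini-Hochberg method over all 14300 tested genes, called 1 member higher (Peg13) and 4 lower (Nnat, Gnas, Phlda2 and Snrpn), that is 5 of 37, and did not call 32. Of all tested genes, 7.06% were called in this comparison, 3.43% higher and 3.64% lower. The median log2 fold change was 0.09 over the members and -0.01 over all tested genes, and the members ranged from -0.46 to 0.54. In TPM, all 3 Zfp352-KO libraries lay above all 3 Parental libraries for 6 members and below them for 5, against 16.2% and 9.98% of all tested genes. Without the first Parental library only Gnas was still called. Of all tested genes, 50 were then called higher and 160 lower, against 490 and 520 with all 9 libraries. Without the third Zfp352-KO library 5 members were called higher (Peg13, Peg3, Rian, Ube3a and Zdbf2), beside 838 of all tested genes.

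In Zfp352/Zfp353-DKO against Parental cells, 0 members were called higher and 5 lower, namely Nnat, Gnas, Phlda2, Peg10 and Cdkn1c. Over all tested genes 8.47% were called, 3.65% higher and 4.82% lower. DESeq2 and limma also called 0 members higher. At an unadjusted edgeR p under 0.05 there were 3 members higher (Rian, Ube3a and Zdbf2) and 9 lower, together 12 of 37. Of all 14300 tested genes, 3508 were under that limit in either direction. The median log2 fold change was 0.01 over the members and -0.00 over all tested genes, with a range from -0.88 for Asb4 to 0.31 for Kcnq1ot1. The libraries of the 2 genotypes did not overlap in TPM for 4 members that were higher and 6 that were lower, against 15.8% and 11% of all tested genes. The comparisons with Parental cells share the same 3 Parental libraries, so the 3 genes called in both, Nnat, Gnas and Phlda2, are not independent repeats.

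Between the edited genotypes, Zfp352/Zfp353-DKO against Zfp352-KO, edgeR, DESeq2 and limma each called 0 of 37 members in either direction, against 0.105% of all tested genes with edgeR, 0.014% higher and 0.0909% lower. At an unadjusted edgeR p under 0.05 there were 5 lower (Gnas, Grb10, Nnat, Peg13 and Peg3) and 1 higher (Snrpn), together 6 of 37. Of all 14300 tested genes, 919 were under that limit in either direction. In TPM 8 members were lower without overlap and 1 was higher, against 5.52% and 5.15% of all tested genes. The 95% interval of a member's log2 fold change, not adjusted for the number of genes, reached a median of 0.19 to either side. A call needed more than that. Peg13 at -0.64 (edgeR adjusted p = 0.0716) and Nnat at -0.30 (adjusted p = 0.531) were not called. The lack of calls therefore does not exclude differences between the edited genotypes, also some larger than 0.19.

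**Figure D2:**
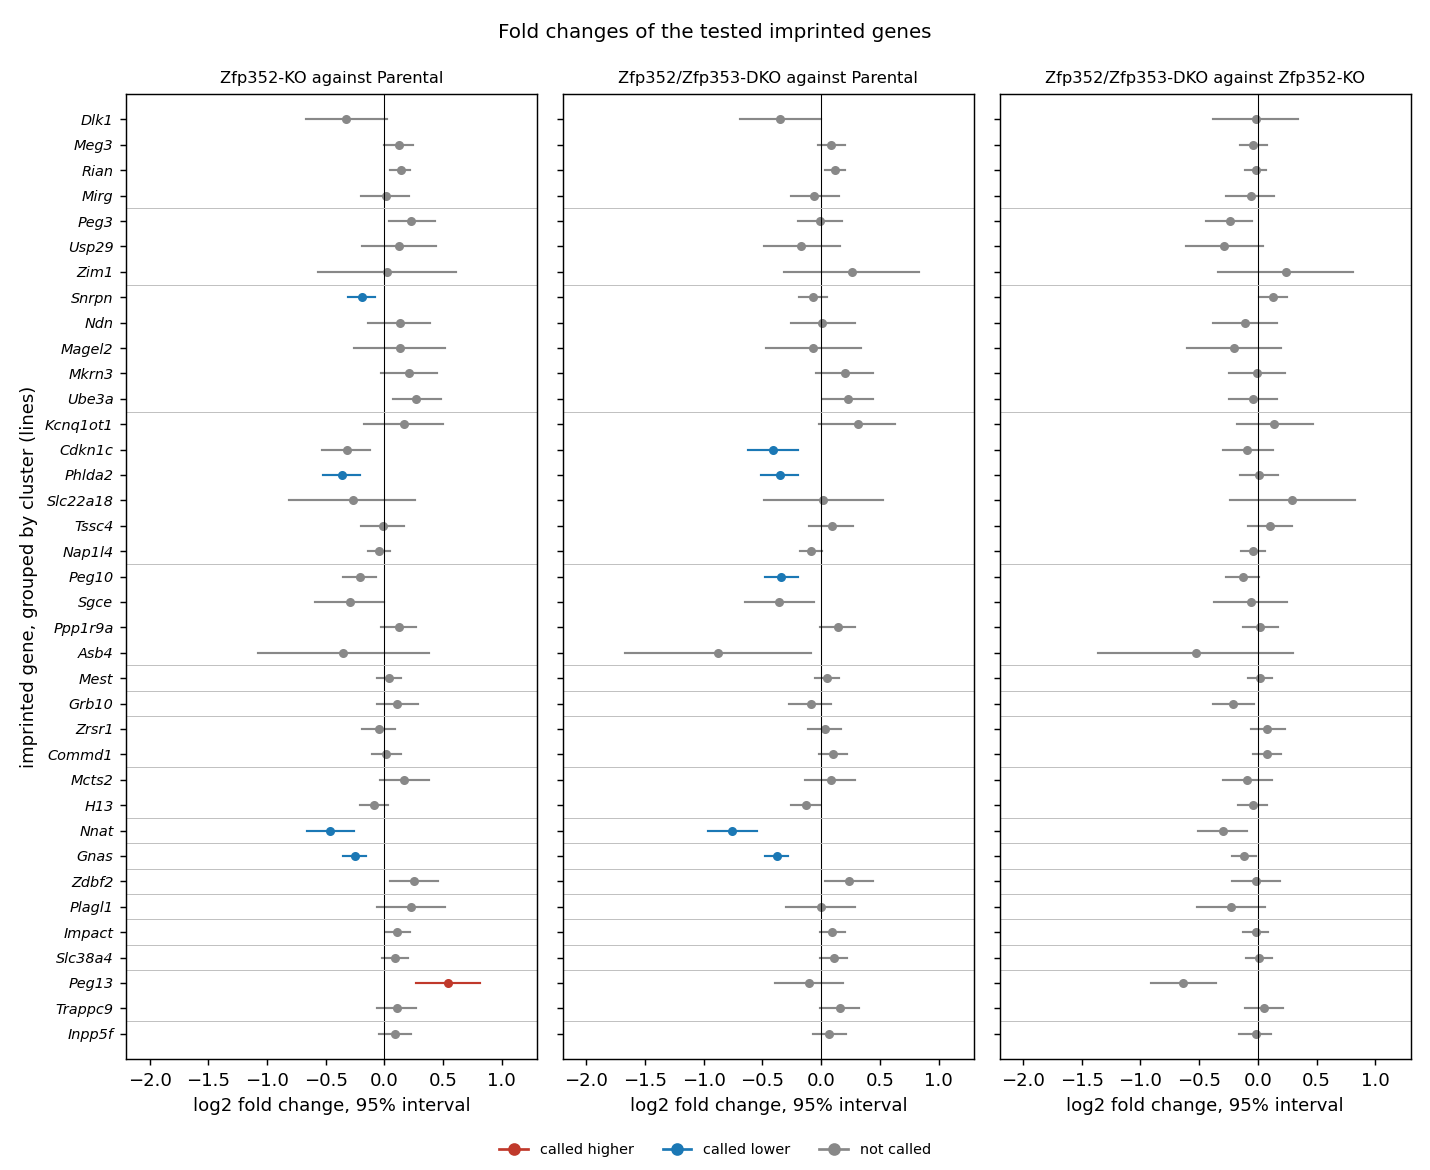
Log2 fold change with its 95% interval (edgeR) for the 37 tested imprinted genes in the 3 comparisons, grouped by cluster with grey lines between clusters. Called genes are coloured: 1 higher and 4 lower in Zfp352-KO, 5 lower in Zfp352/Zfp353-DKO, and none between the edited genotypes, while most intervals cross or come close to 0.

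Nnat, which encodes a small membrane proteolipid of developing neurons and lies in an intron of Blcap (chr2:157560078-157562525), showed the largest fall among the called members in both comparisons with Parental cells. Its TPM was 27.5, 25.1 and 24.1 in Parental, 17.8, 19.0 and 21.0 in Zfp352-KO and 15.3, 16.5 and 15.0 in Zfp352/Zfp353-DKO libraries. The 3 genotypes form 3 steps that do not overlap, and the double-edited libraries are the lowest. The log2 fold change was -0.46 (SE 0.09, edgeR adjusted p = 0.00735) in Zfp352-KO and -0.76 (SE 0.10, adjusted p = 4.78e-05) in Zfp352/Zfp353-DKO cells. The difference between the edited genotypes was -0.30 (95% interval -0.51 to -0.09, adjusted p = 0.531) and was not called. Without the first Parental library the call in Zfp352-KO was lost (adjusted p = 0.0697). Blcap is transcribed across Nnat, and the ratio of Nnat to Blcap counts fell from 0.627 to 0.776 in Parental to 0.450 to 0.595 in Zfp352-KO and 0.372 to 0.389 in Zfp352/Zfp353-DKO libraries, so the host gene did not move in proportion.

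Gnas encodes the stimulatory G protein alpha subunit, and its locus on chromosome 2 (174284320 to 174346744) also makes imprinted transcripts from other first exons, which the gene-level count adds together. It measured 143, 145 and 150.5 TPM in Parental, 129, 129.7 and 129 in Zfp352-KO and 114, 119 and 114 in Zfp352/Zfp353-DKO libraries. As for Nnat, the genotypes fell into 3 steps without overlap, here with a within-group spread among the smallest of the members. The log2 fold change was -0.25 (SE 0.05, edgeR adjusted p = 0.00316) in Zfp352-KO and -0.38 (SE 0.05, adjusted p = 3.5e-05) in Zfp352/Zfp353-DKO cells, and -0.12 (95% interval -0.22 to -0.02, adjusted p = 0.637) between the edited genotypes. Gnas was called lower against Parental cells in both genotypes under each alternative setting and each omission of 1 library that was run. Which of its transcripts fell cannot be read from gene-level values.

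In the Kcnq1 domain of chromosome 7, the long noncoding RNA Kcnq1ot1 is made from the paternal copy and silences its neighbours there, so that Cdkn1c, Phlda2 and Slc22a18 are expressed from the maternal copy. The 2 growth-restraining genes of the domain were the ones that fell. Phlda2, a pleckstrin-homology protein that limits growth of the placenta, measured 72.0, 65.1 and 72.2 TPM in Parental, 53.7, 56.6 and 57.5 in Zfp352-KO and 58.0, 57.4 and 52.7 in Zfp352/Zfp353-DKO libraries. Every edited library lay below every Parental one, and the edited genotypes overlapped. The log2 fold change of Phlda2 was -0.36 (SE 0.07, edgeR adjusted p = 0.00717) in Zfp352-KO and -0.35 (SE 0.07, adjusted p = 0.0056) in Zfp352/Zfp353-DKO cells, with 0.01 (95% interval -0.15 to 0.17) between them. Its call in Zfp352-KO was lost without the first Parental library (adjusted p = 0.0587), with the length and GC trends of all genes removed (log2 fold change -0.20, adjusted p = 0.0689) and with the length trend removed together with a replicate block (-0.24, adjusted p = 0.0593).

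Cdkn1c encodes p57, an inhibitor of cyclin-dependent kinases. Its TPM was 19.1, 16.6 and 16.6 in Parental, 15.2, 15.3 and 12.8 in Zfp352-KO and 14.8, 13.6 and 11.9 in Zfp352/Zfp353-DKO libraries, again with every edited library below every Parental one. It was called lower in Zfp352/Zfp353-DKO (log2 fold change -0.41, SE 0.10, edgeR adjusted p = 0.0143) and missed the threshold in Zfp352-KO (-0.32, SE 0.10, adjusted p = 0.0527). The difference between the edited genotypes was -0.09 (95% interval -0.30 to 0.13), so the single call does not show that they differ. The call was lost without the first Parental library (adjusted p = 0.11) and without the third Zfp352/Zfp353-DKO library (adjusted p = 0.0684), and limma did not make it on log2(TPM + 1) (adjusted p = 0.0566) or log2(TPM + 0.1) (0.0541).

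The other members of the domain were not called. Nap1l4, a histone chaperone, measured 113, 112 and 113 TPM in Parental, 111, 111 and 115 in Zfp352-KO and 108, 108 and 111 in Zfp352/Zfp353-DKO libraries. Its double-edited libraries lay just below the rest, with a log2 fold change of -0.09 against Parental (edgeR adjusted p = 0.248). Tssc4 measured 36.7, 32.1 and 33.8 TPM in Parental, 32.5, 33.1 and 36.8 in Zfp352-KO and 39.2, 37.1 and 33.0 in Zfp352/Zfp353-DKO libraries, which overlap throughout. The transporter gene Slc22a18 stayed between 1.36 and 2.35 TPM. Kcnq1ot1, whose listed transcript of 83437 bases is the longest of the members, was at 0.25 to 0.50 TPM in Parental, 0.37 to 0.57 in Zfp352-KO and 0.45 to 0.51 in Zfp352/Zfp353-DKO libraries, and its log2 fold changes of 0.17 (adjusted p = 0.573) and 0.31 (adjusted p = 0.239) were not called. The summed TPM of the 6 genes of the domain was 236 ± 7.21 in Parental cells, against 219 ± 4.76 in Zfp352-KO cells and 217 ± 5.85 in Zfp352/Zfp353-DKO cells (SD, n = 3 each), of which Phlda2 made up most of the difference.

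**Figure D3:**
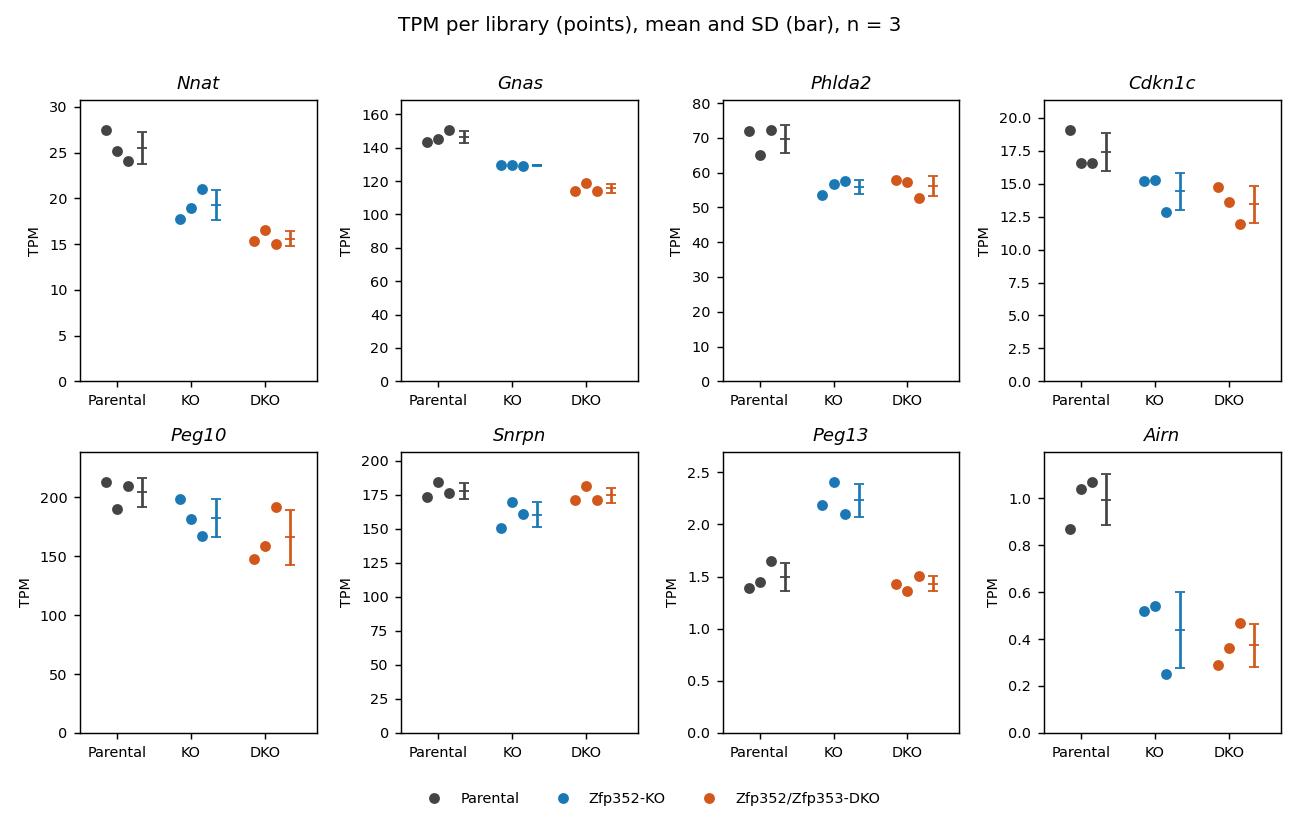
TPM per library for the 7 imprinted genes called in any comparison and for Airn, which was not tested; points are libraries, and the bar beside them is the mean with its SD (n = 3). Nnat and Gnas fall in 3 separate steps, Phlda2 and Cdkn1c are lower in both edited genotypes, the Peg10 libraries overlap, and Snrpn and Peg13 differ from Parental in Zfp352-KO.

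Peg10 and Sgce share a control region on chromosome 6 and are expressed from the paternal copy. Peg10, which derives from a retrotransposon and is needed for the placenta, measured 213, 190.2 and 209 TPM in Parental, 198, 182 and 167 in Zfp352-KO and 148, 158 and 192 in Zfp352/Zfp353-DKO libraries. The genotypes overlapped, because the third Zfp352/Zfp353-DKO library, at 192 TPM, lay above the lowest Parental library. The log2 fold change was -0.34 (SE 0.07, edgeR adjusted p = 0.00272) in Zfp352/Zfp353-DKO and -0.21 (SE 0.07, adjusted p = 0.0573) in Zfp352-KO cells. limma on log2(TPM + 1) did not call Peg10 lower in Zfp352/Zfp353-DKO cells (adjusted p = 0.0697).

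Sgce, which encodes epsilon-sarcoglycan of the cell membrane, measured 8.10, 8.11 and 6.95 TPM in Parental, 7.76, 5.72 and 6.36 in Zfp352-KO and 7.31, 5.66 and 5.66 in Zfp352/Zfp353-DKO libraries. The genotypes overlapped, and its log2 fold changes of -0.29 and -0.36 were not called (edgeR adjusted p = 0.212 and 0.127). Ppp1r9a, the gene of neurabin, measured 10.7, 9.06 and 10.7 TPM in Parental, 12.7, 11.4 and 10.2 in Zfp352-KO and 10.5, 11.4 and 12.8 in Zfp352/Zfp353-DKO libraries. It had the opposite sign, 0.12 and 0.14, and was not called either. Asb4, an ankyrin-repeat gene at 0.15 to 0.41 TPM, had 5 to 16 counts per library, and its log2 fold change of -0.88 in Zfp352/Zfp353-DKO cells had a 95% interval from -1.67 to -0.09 (adjusted p = 0.153).

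In the Prader-Willi and Angelman domain of chromosome 7 the paternal copy gives Snrpn, Ndn, Magel2 and Mkrn3. Snrpn measured 174, 185 and 176 TPM in Parental, 151, 170.0 and 161 in Zfp352-KO and 171, 181 and 171 in Zfp352/Zfp353-DKO libraries. The Zfp352-KO libraries lay below both other groups without overlap, and the Zfp352/Zfp353-DKO and Parental libraries overlapped. The log2 fold change was -0.19 (SE 0.06, edgeR adjusted p = 0.0453) in Zfp352-KO and -0.07 (SE 0.06, adjusted p = 0.492) in Zfp352/Zfp353-DKO cells, and 0.13 (95% interval 0.01 to 0.25, adjusted p = 0.746) between the edited genotypes. The call in Zfp352-KO cells held in 2 of 9 omissions of 1 library, those of the third Parental and the third Zfp352/Zfp353-DKO library. The highest edgeR adjusted p was 0.24, without the first Zfp352-KO library. limma did not call Snrpn there on log2(TPM + 1) (adjusted p = 0.103) or log2(TPM + 0.1) (0.105).

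Snrpn shares most of its transcript with Snurf, and the counting divided their reads unevenly: the ratio of Snrpn to Snurf counts ran from 9.30 to 30.6 over the 9 libraries. With the counts of both genes summed, Zfp352-KO libraries gave 167, 179 and 177 CPM (counts scaled to library size), against 204, 211 and 201 in Parental and 187, 196 and 187 in Zfp352/Zfp353-DKO libraries. The groups then no longer overlapped at all. The summed log2 fold change was -0.23 (SE 0.05, edgeR adjusted p = 0.00725) in Zfp352-KO and -0.11 (SE 0.05, adjusted p = 0.154) in Zfp352/Zfp353-DKO cells.

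The remaining genes of the domain were not called in any comparison. Ube3a, the ubiquitin ligase gene of Angelman syndrome, measured 26.7, 23.3 and 30.1 TPM in Parental, 37.3, 33.9 and 28.7 in Zfp352-KO and 27.1, 30.2 and 39.6 in Zfp352/Zfp353-DKO libraries. The groups overlapped, and its log2 fold changes were 0.27 (edgeR adjusted p = 0.097) and 0.23 (adjusted p = 0.157). Ndn, a MAGE-family gene, measured 9.99, 8.70 and 11.8 TPM in Parental, 9.36, 12.4 and 12.2 in Zfp352-KO and 11.1, 10.98 and 9.35 in Zfp352/Zfp353-DKO libraries, with full overlap. Mkrn3, a ring finger gene, was at 4.43 to 4.51 TPM in Parental, 4.94 to 5.59 in Zfp352-KO and 4.67 to 5.81 in Zfp352/Zfp353-DKO libraries. All 6 edited libraries of Mkrn3 were above the Parental ones, yet its log2 fold changes of 0.21 and 0.20 were not called (adjusted p = 0.277 and 0.294). Magel2, also of the MAGE family, stayed between 0.74 and 1.15 TPM in all 9 libraries.

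Peg13, a noncoding RNA expressed from the paternal copy and transcribed within an intron of Trappc9 on chromosome 15 (72805602 to 72810324), was the only member called higher. It measured 1.39, 1.45 and 1.65 TPM in Parental, 2.19, 2.41 and 2.10 in Zfp352-KO and 1.43, 1.36 and 1.51 in Zfp352/Zfp353-DKO libraries, on 67 to 133 counts. The Zfp352-KO libraries stood above both other groups, which overlapped. The log2 fold change was 0.54 (SE 0.13, edgeR adjusted p = 0.0192) in Zfp352-KO, -0.10 (SE 0.14, adjusted p = 0.711) in Zfp352/Zfp353-DKO and -0.64 (95% interval -0.91 to -0.36, adjusted p = 0.0716) between the edited genotypes. Peg13 was no longer called higher in Zfp352-KO cells without the first Parental library (adjusted p = 0.114), the second Parental library (0.0615), the first Zfp352-KO library (0.0527) or the second (0.0864), and DESeq2 gave it no adjusted p. The call was also lost with limma on log2(TPM + 0.1) (adjusted p = 0.0693) and with edgeR under a replicate block with the length trend removed (adjusted p = 0.0534). Its host gene Trappc9, which acts in vesicle transport, measured 14.6, 13.9 and 15.7 TPM in Parental, 14.6, 16.7 and 16.8 in Zfp352-KO and 18.6, 15.1 and 16.4 in Zfp352/Zfp353-DKO libraries and was not called. The ratio of Peg13 to Trappc9 counts was 0.157 to 0.181 in Zfp352-KO libraries, above the 0.121 to 0.133 of Parental and the 0.0977 to 0.113 of Zfp352/Zfp353-DKO libraries.

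The Dlk1-Dio3 domain of chromosome 12 makes noncoding RNAs from the maternal copy and the growth-regulating membrane protein Dlk1 from the paternal copy, and none of its 4 members was called. Rian, the host of many small nucleolar RNAs, measured 120.3, 119 and 125 TPM in Parental, 142, 139 and 132 in Zfp352-KO and 129.8, 138 and 139 in Zfp352/Zfp353-DKO libraries. All edited libraries lay above the Parental ones, and its log2 fold changes of 0.14 and 0.12 just missed the threshold (edgeR adjusted p = 0.0582 and 0.0951). DESeq2 and limma called it higher in Zfp352-KO cells.

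Meg3, the long noncoding RNA whose silencing marks embryonic stem cells of reduced developmental potential, measured 157, 157 and 174 TPM in Parental, 186, 187 and 167 in Zfp352-KO and 183, 177 and 163 in Zfp352/Zfp353-DKO libraries. It was abundant in every library and overlapped between genotypes, with log2 fold changes of 0.12 (95% interval 0.00 to 0.24) and 0.08 (-0.03 to 0.20). Mirg, which hosts microRNAs, measured 16.3, 17.4 and 15.2 TPM in Parental, 18.5, 15.8 and 16.8 in Zfp352-KO and 17.0, 15.2 and 16.2 in Zfp352/Zfp353-DKO libraries. Dlk1 lay between 1.24 and 2.01 TPM and was not called (log2 fold changes -0.33 and -0.35, edgeR adjusted p = 0.239 and 0.199).

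In the Peg3 domain, also on chromosome 7, the zinc finger gene Peg3 measured 28.1, 23.4 and 29.9 TPM in Parental, 37.4, 33.3 and 28.3 in Zfp352-KO and 23.8, 26.2 and 33.3 in Zfp352/Zfp353-DKO libraries. Its libraries scattered widely within each genotype, and the log2 fold changes of 0.23 (edgeR adjusted p = 0.124) and -0.01 (adjusted p = 0.962) were not called. The ubiquitin protease gene Usp29 was at 0.66 to 0.96 TPM and the zinc finger gene Zim1 at 0.47 to 0.88 TPM over all libraries, neither of them called.

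Of the single loci, Mest, Slc38a4 and Impact were abundant, and none of them was called. Mest, a gene of the alpha/beta hydrolase family, measured 163, 166 and 168 TPM in Parental, 173, 181 and 173 in Zfp352-KO and 163, 183 and 185 in Zfp352/Zfp353-DKO libraries. Its log2 fold changes were 0.04 (95% interval -0.06 to 0.14) and 0.05 (-0.05 to 0.15), so larger changes lie outside these intervals. Slc38a4, an amino acid transporter gene, measured 88.0, 86.4 and 90.3 TPM in Parental, 103, 94.7 and 93.8 in Zfp352-KO and 91.5, 91.8 and 110.2 in Zfp352/Zfp353-DKO libraries. All edited libraries were above the Parental ones, but the log2 fold changes of 0.09 and 0.11 were not called (edgeR adjusted p = 0.313 and 0.232). Impact, a regulator of the translational stress response, measured 114, 111 and 125 TPM in Parental, 137, 126 and 127 in Zfp352-KO and 118, 127 and 139.6 in Zfp352/Zfp353-DKO libraries, and was not called.

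Several imprinted retrogenes sit inside host genes that are themselves members. Mcts2 lies within H13, the gene of signal peptide peptidase, and Zrsr1 within Commd1. Mcts2 measured 35.1, 41.3 and 37.6 TPM in Parental, 47.9, 47.3 and 37.8 in Zfp352-KO and 41.7, 44.5 and 37.2 in Zfp352/Zfp353-DKO libraries, and some of its reads may belong to its parent gene Mcts1. H13 measured 19.2, 16.9 and 19.3 TPM in Parental, 19.3, 18.6 and 18.3 in Zfp352-KO and 17.7, 16.9 and 17.7 in Zfp352/Zfp353-DKO libraries. Neither Mcts2 nor H13 was called, and their genotypes overlapped with Parental. Zrsr1, a splicing factor retrogene, measured 10.0, 9.80 and 9.90 TPM in Parental, 10.4, 9.77 and 9.54 in Zfp352-KO and 9.58, 10.2 and 11.5 in Zfp352/Zfp353-DKO libraries. Commd1 measured 244, 254 and 253 TPM in Parental, 248, 265 and 269 in Zfp352-KO and 275, 287 and 262 in Zfp352/Zfp353-DKO libraries. The double-edited libraries of Commd1 lay above all Parental ones, with a log2 fold change of 0.10 (edgeR adjusted p = 0.32) that was not called.

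Zdbf2, a zinc finger gene that is paternally expressed, measured 17.8, 15.5 and 20.5 TPM in Parental, 26.1, 21.3 and 18.8 in Zfp352-KO and 19.0, 20.4 and 25.8 in Zfp352/Zfp353-DKO libraries. The groups overlapped, and log2 fold changes of 0.25 and 0.24 were not called (edgeR adjusted p = 0.117 and 0.137). Grb10, an adaptor that restrains growth factor signalling, measured 10.4, 8.09 and 9.42 TPM in Parental, 10.5, 11.2 and 9.34 in Zfp352-KO and 9.21, 8.79 and 8.86 in Zfp352/Zfp353-DKO libraries. The edited genotypes did not overlap for Grb10, and the difference of -0.21 between them was not called (adjusted p = 0.673). Inpp5f, a phosphoinositide phosphatase gene, measured 10.1, 9.15 and 10.5 TPM in Parental, 11.4, 11.1 and 10.3 in Zfp352-KO and 10.2, 10.2 and 11.7 in Zfp352/Zfp353-DKO libraries. Plagl1, a zinc finger transcription factor gene that restrains growth, was at 2.22 to 3.88 TPM, and neither of these genes was called.

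The filter left out Airn, Dcn and Kcnk9. Airn, a long noncoding RNA that runs antisense to Igf2r, had 11, 10 and 9 counts in Parental, 5, 7 and 3 in Zfp352-KO and 3, 5 and 5 in Zfp352/Zfp353-DKO libraries. Every edited library lay below every Parental one in count and in TPM. With no filter the edgeR log2 fold changes were -0.91 (95% interval -1.98 to 0.17, adjusted p = 0.387) and -1.11 (-2.21 to -0.00, adjusted p = 0.252), so this difference was not called at so few counts, and reads of Igf2r could be among them if the counting ignored strand. Dcn, the gene of the proteoglycan decorin, had 0 to 5 counts per library.

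Transcript length moved with the fold changes of all genes and touches these results. Over all tested genes the median log2 fold change in Zfp352-KO rose from -0.11 in the shortest decile of length (82 to 1136 bases) to 0.14 in the longest (6049 to 83437 bases), and in Zfp352/Zfp353-DKO cells from -0.09 to 0.11. The members followed this order more clearly in Zfp352-KO than in Zfp352/Zfp353-DKO cells. Of 22 members longer than 2802 bases, 17 had a positive log2 fold change in Zfp352-KO cells, against 6 of 15 shorter ones. In Zfp352/Zfp353-DKO cells 12 of the 22 were positive, against 7 of the 15. All 4 members called lower in Zfp352-KO cells were shorter than 2802 bases, Phlda2 at 737, Nnat at 1241, Gnas at 1559 and Snrpn at 1970 bases. Peg10, at 6666 bases, was lower although genes of its length were mostly higher.

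With the length trend of all genes removed and no other change, Nnat, Gnas and Phlda2 were still called lower in both edited genotypes, and Snrpn was not called (edgeR adjusted p = 0.0648). Phlda2 then had log2 fold changes of -0.24 (adjusted p = 0.033) and -0.25 (adjusted p = 0.0189). Peg10 then had a larger fall, with a log2 fold change of -0.32 (SE 0.04, edgeR adjusted p = 5.54e-05) in Zfp352-KO and -0.44 (SE 0.04, adjusted p = 4.16e-07) in Zfp352/Zfp353-DKO cells. In the same fit Peg13 was called lower in Zfp352/Zfp353-DKO than in Zfp352-KO cells (-0.63, SE 0.13, adjusted p = 0.0369).

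**Figure D4:**
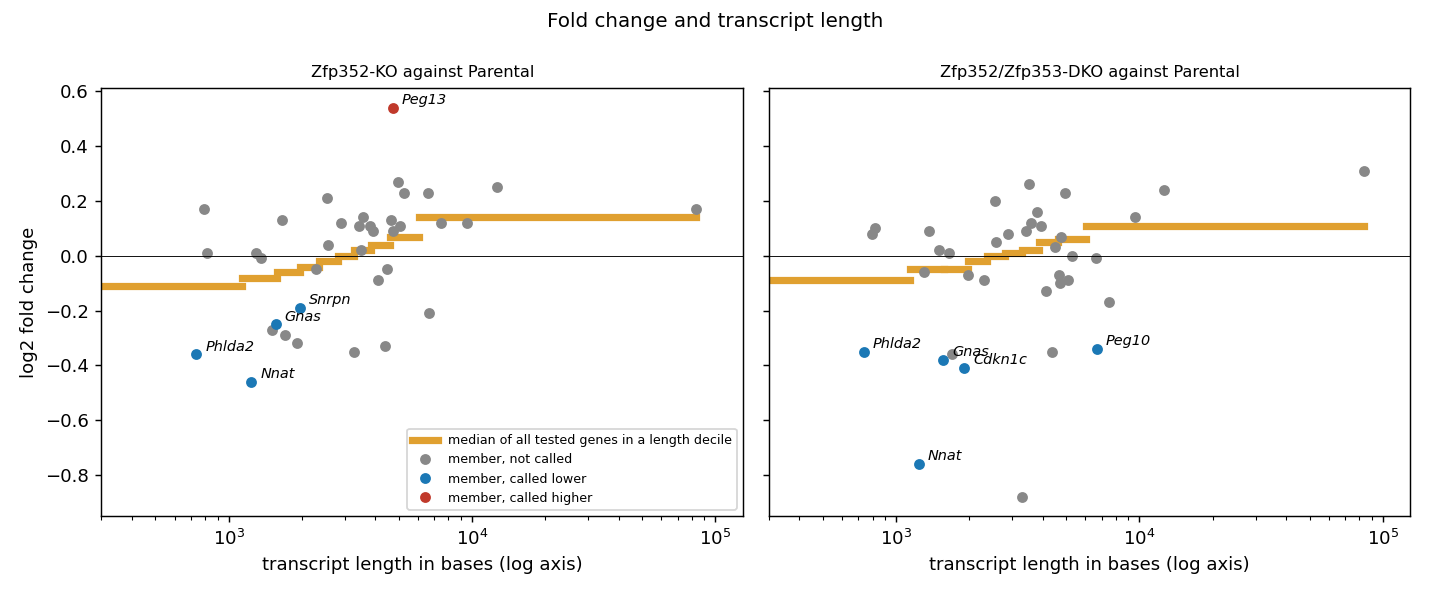
Log2 fold change against Parental of the 37 tested imprinted genes (points) by transcript length in bases on a log axis, with the median of all tested genes in each decile of length (bars). The bars rise from -0.11 to 0.14 in Zfp352-KO and from -0.09 to 0.11 in Zfp352/Zfp353-DKO cells, most called members lie at the short end, and Peg10 lies below its bar among the longest genes.

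The members also scattered more between libraries of a genotype than other genes of their abundance. The median within-group SD of log2 CPM was 0.118 over the members and 0.104 over all tested genes. Placed among genes of the same expression decile, the members' SD had a median percentile of 67.4, and 10 of 37 lay above the 90th: Peg3, Ndn, Ube3a, Kcnq1ot1, Tssc4, Peg10, Ppp1r9a, Zdbf2, Plagl1 and Trappc9. Several of these are long transcripts. In Peg3, Ube3a, Zdbf2 and Ppp1r9a the first Zfp352-KO and the third Zfp352/Zfp353-DKO library were the highest of their groups.

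Grouped by the copy usually expressed, as known from other work, members called in Zfp352-KO against Parental cells were 1 higher and 2 lower of 19 paternally expressed genes, 1 lower of 10 maternally expressed genes and 1 lower of 8 genes whose imprint depends on tissue or isoform, where 7.06% of all genes were called. Their median log2 fold changes were 0.12, -0.04 and 0.05 in that order, against -0.01 for all genes. In Zfp352/Zfp353-DKO cells 2, 2 and 1 were lower in the same order and none was higher, where 8.47% of all genes were called. The median log2 fold changes there were -0.00, -0.02 and 0.08, against -0.00 for all genes.

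Genes that set, keep or erase imprints were followed as a list of 31, all of which were tested. In Zfp352-KO against Parental cells 8 were called higher and none lower, and in Zfp352/Zfp353-DKO cells 4 were higher and 2 lower, against the shares of all genes given above. The median log2 fold changes of the list were 0.09 and 0.06. Dnmt1, the maintenance DNA methyltransferase, measured 101, 101 and 106 TPM in Parental, 149.6, 148 and 136 in Zfp352-KO and 137, 141 and 148 in Zfp352/Zfp353-DKO libraries. The edited libraries overlapped with each other and lay above the Parental ones. Its log2 fold change was 0.45 (SE 0.04, edgeR adjusted p = 4.37e-06) in Zfp352-KO and 0.44 (SE 0.04, adjusted p = 2.04e-06) in Zfp352/Zfp353-DKO cells, and it was called in every omission of 1 library. Tet2, which oxidises methylated cytosine, rose by 0.47 (SE 0.08, adjusted p = 0.00273) and 0.46 (SE 0.08, adjusted p = 0.00193) on the log2 scale.

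Zfp57, the zinc finger protein that protects many imprints, measured 222, 217 and 217 TPM in Parental, 256, 271 and 245 in Zfp352-KO and 254, 268 and 242 in Zfp352/Zfp353-DKO libraries. All edited libraries were higher than the Parental ones, with a log2 fold change of 0.21 in both (SE 0.05, edgeR adjusted p = 0.0198 and 0.0161). Zfp445, a second protector of imprints, went from 31.5, 32.3 and 34.3 TPM in Parental to 42.4, 41.2 and 35.7 in Zfp352-KO and 35.8, 37.7 and 43.4 in Zfp352/Zfp353-DKO libraries. Its log2 fold changes were 0.24 and 0.21 (adjusted p = 0.0236 and 0.0338), and neither call held once the length trend was removed (adjusted p = 0.0782 and 0.0857). Zfp445 also lost both calls without the first or the second Parental library, the call in Zfp352-KO without the first or second library of that genotype (highest adjusted p = 0.146), and the call in Zfp352/Zfp353-DKO without the third Parental, the second or the third double-edited library (highest 0.178). Zfp57 lost its calls without the first Parental library, and without the second Zfp352-KO (adjusted p = 0.0918) or second Zfp352/Zfp353-DKO library (0.0832) the call of that genotype.

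Trim28, the corepressor both proteins recruit, was not called, with log2 fold changes of -0.00 and 0.03, nor was Uhrf1, the DNMT1 partner, with 0.07 and 0.01, nor Dnmt3l, the cofactor of new methylation, with -0.07 and -0.03. In TPM the Zfp352/Zfp353-DKO libraries of Trim28 and the Zfp352-KO libraries of Uhrf1 lay above all Parental ones. Dppa3, which shields maternal methylation in the early embryo, measured 230.4, 227 and 203 TPM in Parental, 219, 206 and 206 in Zfp352-KO and 178, 181 and 180.0 in Zfp352/Zfp353-DKO libraries. It fell in Zfp352/Zfp353-DKO (log2 fold change -0.34, SE 0.06, edgeR adjusted p = 0.00118) and was not called in Zfp352-KO cells (-0.12, adjusted p = 0.219). The double-edited libraries lay below both other groups, and the difference between the edited genotypes was -0.22 (adjusted p = 0.268). Dnmt3a, the enzyme that sets new methylation, fell by 0.22 in Zfp352/Zfp353-DKO cells (SE 0.05, adjusted p = 0.00528), a call that limma did not make on log2(TPM + 0.1) (adjusted p = 0.0835) or on log2(TPM + 1). The number of regulators called higher in Zfp352-KO cells was 2 without the first Parental library, 13 without the third Zfp352-KO library and 4 with the length trend removed. Of all tested genes, 50, 838 and 306 were called higher in the same order, against 490 with none of these changes.

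**Figure D5:**
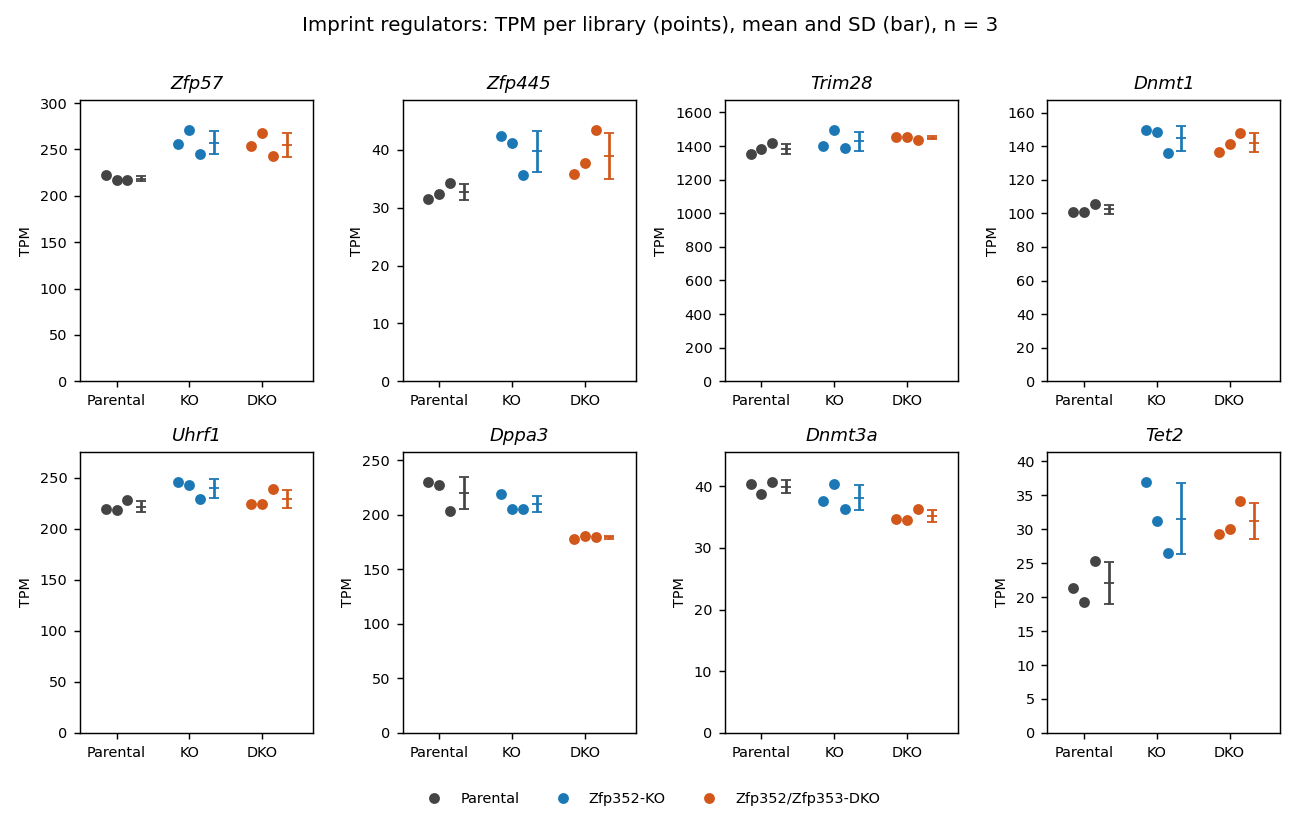
TPM per library for 8 genes that keep or erase imprints; points are libraries and the bar beside them is the mean with its SD (n = 3). Dnmt1, Tet2 and Zfp57 are higher in all edited libraries than in the Parental ones, Dppa3 and Dnmt3a are lowest in Zfp352/Zfp353-DKO, and Trim28 and Uhrf1 were not called.

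Genes that neighbour the clusters were followed as a list by position, which was not limited to genes without an imprint. Of 37 neighbours with a row, 27 were tested, 3 were called higher in Zfp352-KO (Cobl, Adam23 and Herc2) and 2 in Zfp352/Zfp353-DKO cells (Cobl and Adam23), and none was lower, where 3.43% and 3.65% of all genes were called higher. With the length trend removed, 2 were higher and 1 lower in Zfp352-KO, and 5 higher and 1 lower in Zfp352/Zfp353-DKO cells. Cobl, an actin nucleator beside Grb10, had log2 fold changes of 0.50 (SE 0.07, edgeR adjusted p = 0.000462) and 0.56 (SE 0.07, adjusted p = 4.97e-05), while Grb10 itself was not called. Adam23, beside Zdbf2, had 0.25 (SE 0.05, adjusted p = 0.00316) and 0.37 (SE 0.05, adjusted p = 3.83e-05). Herc2, in the Prader-Willi and Angelman domain, had 0.27 (SE 0.07, adjusted p = 0.0278) and lost its call with the length trend removed (adjusted p = 0.664) and without the first or second library of either the Parental or the Zfp352-KO genotype (highest adjusted p = 0.146).

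Phlda2, Cdkn1c and Peg10 are known from the trophoblast and several members from mesenchymal cells, and in bulk RNA fewer cells of a type cannot be told apart from less RNA per cell. Beside the falls of Nnat, Phlda2 and Cdkn1c stand those in the summed TPM of the fibroblast-type, trophectoderm and primitive endoderm lists. The lists were chosen with earlier results of these data known, so their shares beside those of all genes are a description and not a test. Of 16 tested fibroblast-type markers, 7 were called lower in Zfp352-KO cells and 8 were in Zfp352/Zfp353-DKO cells, where 3.64% and 4.82% of all genes were called lower. Between the edited genotypes 3 were lower in Zfp352/Zfp353-DKO cells, against 0.0909% of all genes, a count that was 0 without the third Zfp352-KO, the first or the second Zfp352/Zfp353-DKO library, with only the 6 libraries compared and with limma, 2 without the first or second Parental, the second Zfp352-KO or the third Zfp352/Zfp353-DKO library, 5 with DESeq2, and 6 with no filter or with the length trend removed. Tagln, for example, had log2 fold changes of -0.76 and -1.25 against Parental (edgeR adjusted p = 4.37e-06 and 3.23e-09). Of 13 tested trophectoderm markers 5 were lower in each edited genotype, among them Krt18 at -0.57 and -0.82 (adjusted p = 8.61e-05 and 4.24e-07). The log2 fold change was positive for 5 of the 13 in Zfp352-KO and for 3 in Zfp352/Zfp353-DKO cells. Of 13 tested primitive endoderm markers 3 were lower in Zfp352-KO, and 4 were lower and 1 higher in Zfp352/Zfp353-DKO cells. The log2 fold change was positive for 4 of these 13 in Zfp352-KO and for 5 in Zfp352/Zfp353-DKO cells. The median over the primitive endoderm list was -0.11 and -0.07 in that order. Pdgfra is on both the fibroblast-type and the primitive endoderm list. Of 8 tested neural progenitor markers 1 was higher and 1 lower in each edited genotype. Of 15 tested 2-cell-like markers 5 were higher and 3 lower in Zfp352-KO, and 2 higher and 3 lower in Zfp352/Zfp353-DKO cells. This list includes Zfp352, the edited gene itself, which is 1 of the 3 lower in each genotype. None of the markers was at 0 in all libraries, and their part in the falls of the imprinted genes was not tested.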

How the data were processed

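RNA of 9 EB5 libraries, 3 for each genotype, was sequenced as single-end reads after stranded poly(A) library preparation, per the labels' protocols. Per the submitters' processing notes, the authors used RSEM 1.3.3, STAR 2.7.8a and Trim Galore 0.6.6, with mm10. For the strand setting and annotation release the sources used here give nothing. Per the file headers, the authors deposited expected counts (RSEM estimates, 9.27% of them not whole), TPM and FPKM. Deposited TPM values show levels, and FPKM was not used.

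Expected counts were rounded, and the test was run in R 4.3.3 with edgeR 4.0.16 (TMM factors 0.992 to 1.01, filterByExpr, quasi-likelihood, two-sided, 1 fit of all 9 libraries with 6 residual degrees of freedom). A call needs an adjusted p under 0.05, by Benjamini-Hochberg over 14300 tested genes. Standard errors come from the F statistic. The fit was tested on simulated data. The length trend was removed per library by a local regression of span 0.3. DESeq2 1.42.0, limma 3.58.1, other scalings and filters and the omission of each library were alternatives. Members and lists were chosen with earlier results of these data known. Genes called in any comparison, or with a mean of at least 10 TPM in any genotype, are given in every library. Regulators and neighbours are given by count, with up to 4 called genes and 7 fixed genes, and marker lists with up to 3.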

Additional observations from a re-analysis of the deposited data

How the results depend on the processing

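In Zfp352-KO against Parental cells, 1 member was called higher; the number was 2 with RLE size factors, with the length and GC trends removed, with only the 6 libraries compared and with limma on log2(TPM + 1), 4 with no filter, and 0 at an adjusted p under 0.01 and with the replicate block and length trend removal together. With DESeq2 and with limma on log2(TPM + 0.1) the 1 member called higher was Rian and not Peg13. Over omissions of 1 library the number called higher ran from 0 to 5, and the number called lower from 1 to 6 around 4. Of all tested genes, 50 to 838 were called higher and 160 to 714 lower over these omissions, against 490 and 520 with all 9 libraries. In Zfp352/Zfp353-DKO against Parental cells, the number called higher was 0; it was 2 with no filter (Ube3a and Zdbf2) and 1 (Commd1) with the length trend removed, with the block added to it and with length and GC removed, and 0 to 1 over omissions. The number lower, 5, was 3 with limma on log2(TPM + 1) and 3 on log2(TPM + 0.1), and 4 to 6 over omissions. Of all tested genes, 123 to 697 were called higher and 326 to 726 lower over omissions, against 522 and 689 with all 9 libraries. Between the edited genotypes 1 member, Peg13, was called lower with no filter, with the length trend removed and with length and GC removed; omissions gave 0. The cause of these shifts was not tested. The differences between the edited genotypes that changed sign were near 0: Phlda2, at 0.01, was -0.01 with the length trend removed and with the block added to it, -0.03 with length and GC removed and ran from -0.03 to 0.07 over omissions, below 0 without the first library of either edited genotype or the second Zfp352/Zfp353-DKO library, and Cdkn1c, at -0.09, ran from -0.18 to 0.01, above 0 without the third Zfp352/Zfp353-DKO library. The length and GC fit and the Snrpn and Snurf sum were chosen after seeing the data.

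No label states a shared source for same-numbered libraries. Correlations of their deviations ran from -0.0767 to 0.106, against -0.0845 to 0.101 for libraries of different number. Such low values do not exclude a shared source. A replicate block gave 1 member higher and 5 lower in Zfp352-KO, adding Cdkn1c, and 0 and 5 in Zfp352/Zfp353-DKO cells; between the edited genotypes it gave 0. Over all tested genes the block gave 232 higher and 337 lower in Zfp352-KO, against 490 and 520 without it, and 333 and 534 in Zfp352/Zfp353-DKO cells, against 522 and 689. Counts of 3 to 16 per library, as for Airn and Asb4, limit what can be called.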
